A study of Mus musculus with 2 samples.

Results

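Capillary-1 endothelial cells (ECs) are the largest of 5 EC subclusters in fetal mouse bone marrow at the embryonic stage E18.5, shortly before birth. They were taken as the cells of the wild-type library that the study's cell list assigns to EC subcluster 0, which gave 232 of 435 listed E18.5 ECs, a share of 53.3% (95% Clopper-Pearson interval 48.5 to 58.1%). The copy of the cell list held here is shortened, so the share is that of the listed cells. The other listed ECs were 47 capillary-2, 53 capillary-3, 47 sinusoidal and 56 arterial cells. The study made 1 single-cell RNA-seq library for each of 2 genotypes. The WT library came from C57BL/6 fetal bone marrow. The Bmx-CreER Wls library came from fetuses of the same strain and stage in which a tamoxifen-activated Cre, driven by the Bmx promoter in arterial ECs, deletes floxed Wls, the gene for a carrier that Wnt proteins need for secretion. Tamoxifen was given to the pregnant dams of the mutants, as the study's methods state. Wild-type controls for that injection were not analysed here. Both libraries were prepared after magnetic removal of haematopoietic cells committed to a lineage. The number of embryos behind each library is not given in the sources used here.

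Capillaries are the thin exchange vessels between arteries and veins, and in growing bone they advance together with the cartilage that is being replaced. Their ECs receive VEGF through the receptor Kdr, and sprouting ECs send apelin to neighbours that carry the apelin receptor Aplnr. In the bone marrow, capillaries feed into sinusoids, wide vessels with scavenger receptors through which blood cells enter the circulation, while arterial ECs are set apart by Notch ligands, connexins and the chemokine Cxcl12.

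Levels are counts of unique molecular identifiers (UMIs), scaled to the total of the summed cells of a subcluster and abbreviated CPM (counts per 1e6 UMIs). The WT library held 5998 barcodes and 22708005 UMIs, and the 232 capillary-1 ECs gave 738830 of these. Capillary-1 ECs had a median of 2858 UMIs (range 853 to 8619) and 1526 genes per cell, against a median of 2836 UMIs in the other 203 ECs, so depth differed little between the groups. The mitochondrial share had a median of 6.18% in capillary-1 ECs and of 5.69 to 8.97% in the other subclusters. The libraries shared 49 cell barcodes, of which 0 belonged to capillary-1 ECs. Scrublet called 39 of 5736 WT cells doublets and 0 of them were capillary-1 ECs. Because each genotype has 1 library, no test between replicates was possible. Intervals are 95% exact intervals (Poisson for levels, conditional binomial for ratios, Clopper-Pearson for shares) and cover counting error only. The study made the subclusters from these cells together with adult ECs, and its methods took cell cycle genes out of the variable genes first. Other genes of the same cells shaped the subclusters, so the contrasts within the WT library are descriptions.

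The 4 marker genes identified the cells as endothelium. Cdh5, the adhesion molecule of EC junctions (chr8:104101625-104144511, plus strand), had 1274 UMIs and was detected in 94.8% of capillary-1 ECs (91.1 to 97.3%). Kdr (chr5:75932827-75978458, minus strand) was detected in 90.5%, Aplnr (chr2:85136225-85139923, plus strand) in 80.2% and Emcn, a sialomucin of capillaries and veins (chr3:137341067-137432185, plus strand), in 63.8% of the cells. In 953 chondrocytes of the same library, at a median of 2765 UMIs per cell, the same 4 genes were detected in 0.210 to 0.630% of cells. With each cell thinned to 1000 UMIs, the shares in capillary-1 ECs were 78.9% for Cdh5, 70.5% for Kdr, 58.1% for Aplnr and 33.0% for Emcn.

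Cdh5, Kdr and Emcn did not set capillary-1 apart from the other ECs. Cdh5 was at 1724 CPM in capillary-1, 1302 in capillary-2, 1356 in capillary-3, 1789 in sinusoidal and 2009 in arterial ECs, and the ratio of capillary-1 to all other ECs was 1.07 (0.986 to 1.16). Kdr was at 1284 CPM in capillary-1 and between 1127 and 2069 in the others, with a ratio of 0.917 (0.837 to 1.01). Emcn was at 391 CPM in capillary-1 and between 280.0 and 769.9 in the others, with a ratio of 0.823 (0.699 to 0.969). Aplnr separated the 4 non-arterial subclusters from the arterial one. Its levels were 912 CPM in capillary-1, 858 in capillary-2, 999.9 in capillary-3, 1259.8 in sinusoidal and 60.4 in arterial ECs, so that capillary-1 was 15.1-fold above arterial ECs (8.39 to 30.4). All 22 pan-endothelial genes of a wider list had at least 50 UMIs, 0 of them differed 2-fold, and their median log2 ratio was -0.02. Of all genes compared, 0.814% were 2-fold higher and 2.77% 2-fold lower. The label endothelial thus had its markers. The label capillary was not settled by these markers, since none of the 4 was highest in capillary-1. Low levels of the arterial set, described further on, do not settle it either. The arterial list summed to 552 CPM in capillary-1 and to 467 in sinusoidal ECs.

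Most genes were at like levels in capillary-1 and the other ECs. Among 4915 genes with at least 50 UMIs over the 435 cells, the median log2 ratio was 0.01 (quartiles -0.22 and 0.22). At least 2-fold higher levels in capillary-1 were seen for 40 genes, 0.814% of those compared, and 136 genes (2.77%) were at 0.5 of the other ECs' level or below. Since the subclusters were made from variable genes of these same cells, nothing is read from the counts themselves. Of the 40 higher genes, 3 were the haemoglobin genes Hba-a1, Hba-a2 and Hbb-bs. Erythroid list genes had a UMI in 21 of 232 capillary-1 ECs, in 2 of which they took over 1% of the UMIs, and the part of red cell RNA in these 3 ratios was not tested. Of the other 37, 33 were higher in capillary-1 than in each of the 4 other subclusters. Their choice by the pooled ratio favours this count, so it is not read as a result. The next highest subcluster was capillary-3 for 18, sinusoidal for 9, capillary-2 for 8 and arterial for 2 of the 37.

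**Figure D1:**
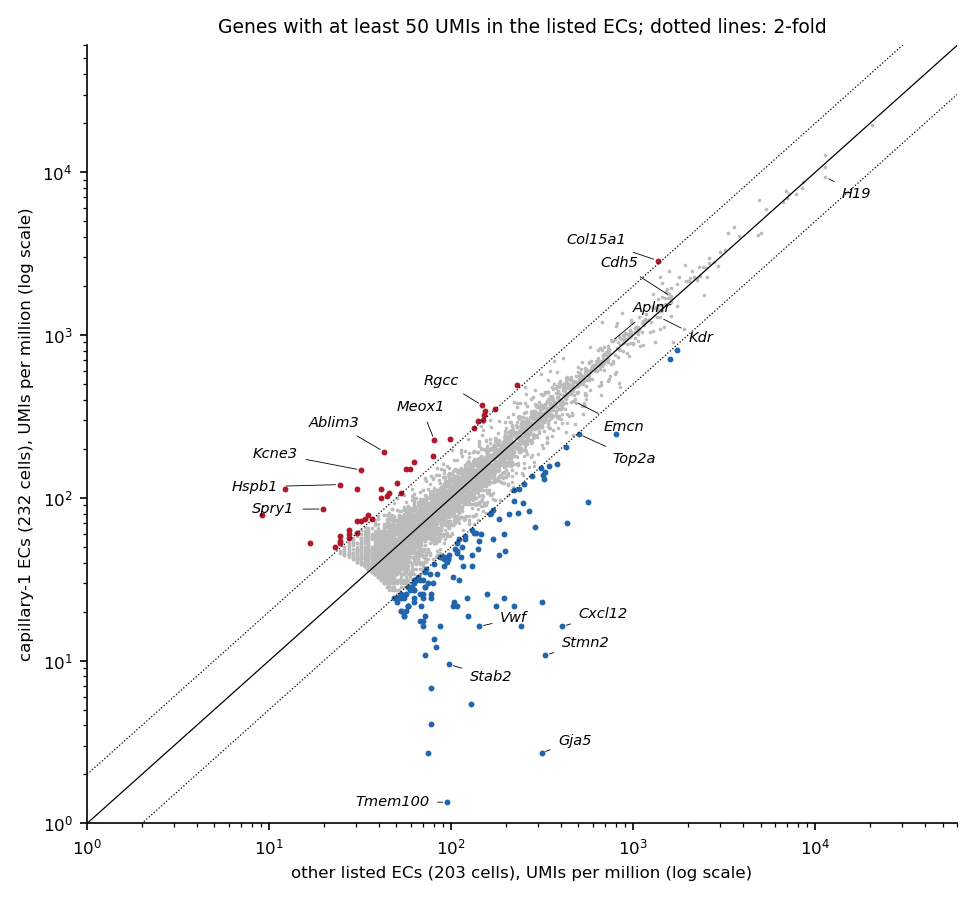
CPM in the summed capillary-1 ECs (vertical, log axis) against the summed other listed ECs of the WT library (horizontal, log axis), 1 point per gene with at least 50 UMIs. Red points are genes at least 2-fold higher and blue points genes at 0.5 or less in capillary-1; the blue points outnumber the red ones (136 against 40), and Lyve1, with 0 UMIs in capillary-1, cannot be drawn on the log axis.

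The genes with the highest ratios formed no single pathway. Hspb1, a small heat shock protein that regulates actin filaments (chr5:135887919-135889563, plus strand), led them. It was at 120.5 CPM in capillary-1, 43.6 in capillary-2, 28.8 in capillary-3, 0 in sinusoidal and 22.0 in arterial ECs, a ratio of 4.94 to the other ECs together (2.88 to 9.02). The rank rests on 89 UMIs in 20.7% of capillary-1 ECs against 16 UMIs in all others. Kcne3, an accessory subunit of potassium channels and a known gene of endothelial tip cells (chr7:100176502-100184869, plus strand), had 109 UMIs in capillary-1, 0 in capillary-2, 20 in capillary-3, 0 in sinusoidal and 1 in arterial ECs. It was at 148 CPM in capillary-1 and 96.1 in capillary-3, and its ratio was 4.61 (2.87 to 7.75). Read against a floor of 3 counts per subcluster, capillary-1 was at least 6.76-fold higher than capillary-2 and at least 6.32-fold higher than sinusoidal ECs. Capillary-1 and capillary-3 differed by 1.53-fold in Kcne3, so both expressed it.

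Spry1, a feedback inhibitor of receptor tyrosine kinase signalling (chr3:37639947-37644598, plus strand), had the same distribution. It was at 85.3 CPM in capillary-1, 0 in capillary-2, 52.9 in capillary-3, 7.78 in sinusoidal and 5.49 in arterial ECs, a ratio of 4.30 (2.35 to 8.53). Ablim3, an actin-binding protein, reached 192 CPM in capillary-1, 65.4 in capillary-2, 76.9 in capillary-3, 7.78 in sinusoidal ECs, with 2 UMIs in arterial ECs. Its ratio was 4.50 (2.99 to 7.02), and it was detected in 32.3% of capillary-1 ECs. Meox1, a homeobox transcription factor (chr11:101877510-101894374, minus strand), was graded across the subclusters, with 226 CPM in capillary-1, 175 in capillary-2, 101 in capillary-3, 38.9 in sinusoidal and 16.5 in arterial ECs (ratio 2.80, 2.04 to 3.89). Meox1 and capillary-2 were closer than the pooled ratio shows, at 1.30-fold.

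The remaining genes of the highest 15 had ratios of 2.35 to 3.15. Membrane channels were among them. Piezo2, a mechanically gated cation channel, was at 165 CPM in capillary-1, 36.4 in capillary-2, 135 in capillary-3, 54.4 in sinusoidal and 5.49 in arterial ECs (ratio 2.64). Kcna5, a voltage-gated potassium channel, was at 123, 7.27, 106, 7.78 and 49.4 CPM in the same order (ratio 2.45). Both channels were within 1.23-fold of capillary-3. Vwa1, an extracellular matrix protein, was at 150.2 CPM in capillary-1 against 36.4, 111, 7.78 and 43.9 CPM (ratio 2.66). Tspan15, a tetraspanin that partners the protease Adam10, was at 150.2 CPM in capillary-1, 14.5 in capillary-2, 91.3 in capillary-3 and 124 in sinusoidal ECs, with 2 UMIs in arterial ECs (ratio 2.53), so sinusoidal ECs came near it. Thbs1, the matricellular protein thrombospondin-1, was at 71.7 CPM in capillary-1 and 72.7 in capillary-2 but at 38.5 or less in the others (ratio 2.35). St8sia4, a polysialyltransferase, had a ratio of 2.76, Rasgrp2, an activator of the GTPase Rap1, one of 3.15, the imprinted retrotransposon-derived gene Peg10 one of 2.43 and Nfu1, an iron-sulphur cluster carrier of mitochondria, one of 2.39.

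**Figure D2:**
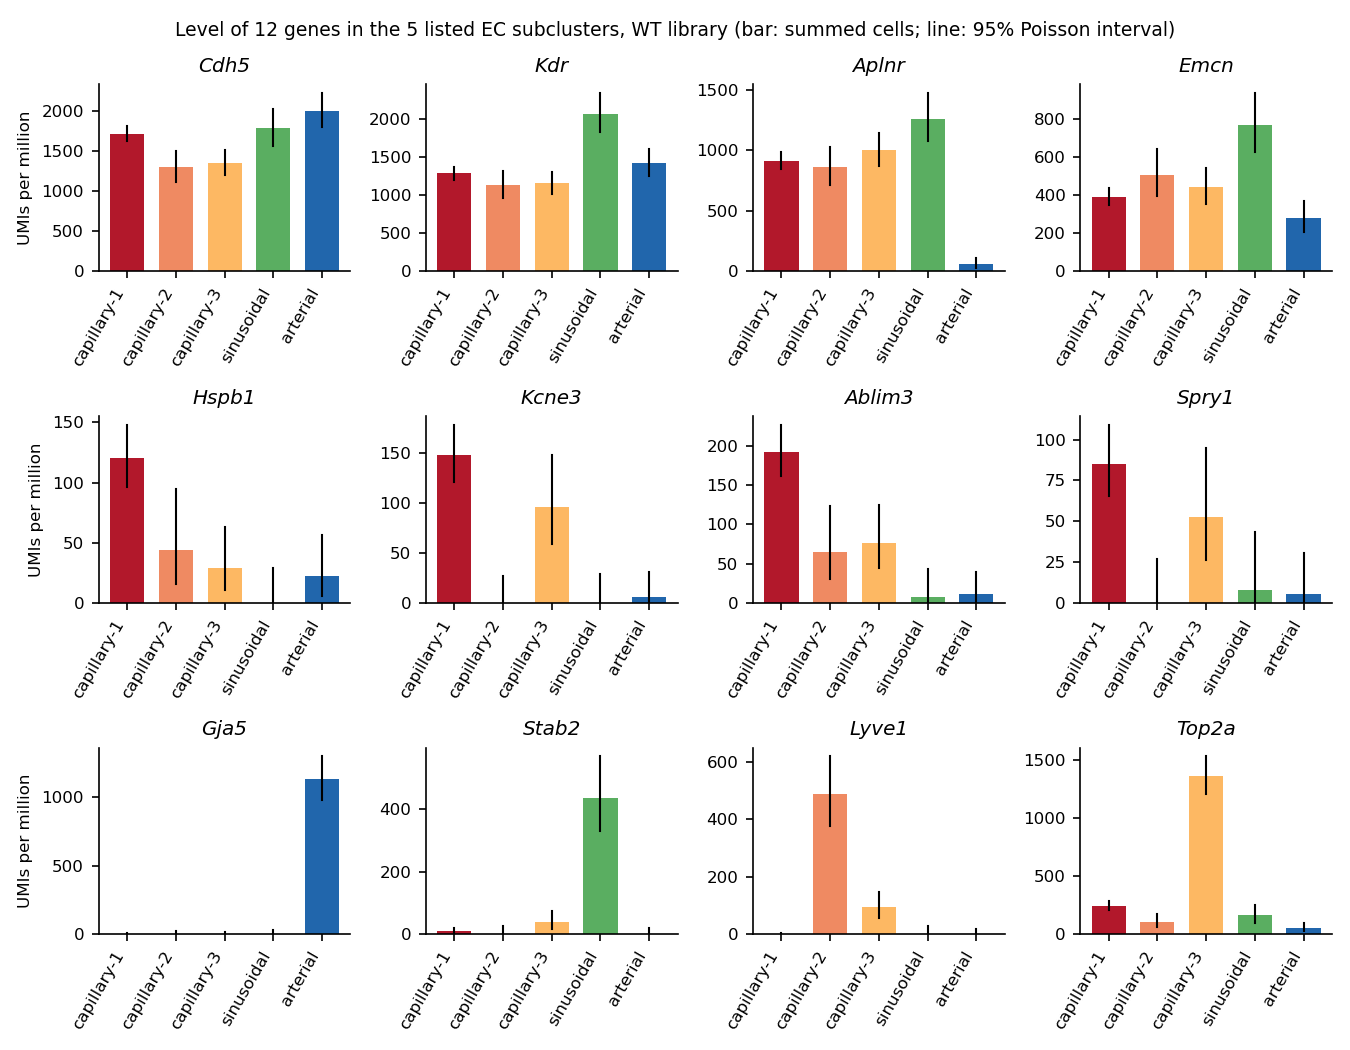
Levels of 12 genes in CPM (vertical, from 0) in the summed cells of each of the 5 EC subclusters of the WT library (232, 47, 53, 47 and 56 cells); the line on each bar is the 95% Poisson interval of the count. Kcne3 and Spry1 are seen in capillary-1 and capillary-3, while Aplnr is low only in the arterial bar, at 60.4.

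The promoters of 3 of the leading genes and of the marker Kdr are shown so that the start regions behind these levels can be read side by side. Each window runs from 250 bases before to 50 after the transcript start of RefSeq on GRCm38.p6, and is printed 5′ to 3′ on the strand of the gene. The windows are chr5:75978406-75978705 on the minus strand for Kdr, chr5:135887669-135887968 on the plus strand for Hspb1, chr7:100176420-100176719 on the plus strand for Kcne3 and chr3:37639697-37639996 on the plus strand for Spry1. Capitals mark AGGAAG or, for the other strand, CTTCCT, a core bound by ETS factors, a family that includes the endothelial regulators Erg and Fli1. For Kcne3 the table has 2 windows, and the one nearest to the annotated start is printed.
Kdr: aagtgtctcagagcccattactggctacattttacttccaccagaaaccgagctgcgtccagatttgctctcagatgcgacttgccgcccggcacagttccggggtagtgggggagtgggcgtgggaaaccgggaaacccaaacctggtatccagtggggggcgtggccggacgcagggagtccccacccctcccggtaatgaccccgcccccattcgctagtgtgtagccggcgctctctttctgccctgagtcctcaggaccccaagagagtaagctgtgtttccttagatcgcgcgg
Hspb1: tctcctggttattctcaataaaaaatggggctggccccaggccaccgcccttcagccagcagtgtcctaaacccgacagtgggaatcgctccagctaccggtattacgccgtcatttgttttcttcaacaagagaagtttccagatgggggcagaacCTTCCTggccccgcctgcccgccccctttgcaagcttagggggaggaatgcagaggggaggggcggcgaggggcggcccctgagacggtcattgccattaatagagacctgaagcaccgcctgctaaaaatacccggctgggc
Kcne3: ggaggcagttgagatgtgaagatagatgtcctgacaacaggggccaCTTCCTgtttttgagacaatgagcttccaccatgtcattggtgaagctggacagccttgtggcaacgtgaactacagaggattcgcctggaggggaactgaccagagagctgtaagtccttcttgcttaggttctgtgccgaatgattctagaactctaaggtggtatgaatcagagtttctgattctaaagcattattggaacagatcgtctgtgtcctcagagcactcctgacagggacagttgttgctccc
Spry1: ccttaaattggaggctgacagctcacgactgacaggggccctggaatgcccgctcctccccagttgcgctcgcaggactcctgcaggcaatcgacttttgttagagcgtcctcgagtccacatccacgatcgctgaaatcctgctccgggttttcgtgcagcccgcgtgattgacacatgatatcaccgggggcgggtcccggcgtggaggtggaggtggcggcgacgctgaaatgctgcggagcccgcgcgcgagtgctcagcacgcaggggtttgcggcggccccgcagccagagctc
Hspb1 and Kcne3 hold 1 match each, and Kdr and Spry1 hold 0. Of the 45 windows found for genes at least 2-fold higher in capillary-1, 16 (35.6%) held a match, against 35.4% of all 32851 windows, so the letters were as common in these windows as in all of them.

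The tip cell and sprouting list had members past 2-fold on both sides. Of 20 genes, 15 had at least 50 UMIs. Of these, 2 were at least 2-fold higher (0.814% of all genes compared were) and 2 were 2-fold lower (2.77% of all genes), and the median log2 ratio was 0.43, the highest of the lists of endothelial functions other than the pair of apelin genes. The 2 higher genes were Kcne3 and Rgcc, a regulator of the cell cycle. Rgcc was at 369.5 CPM in capillary-1, 124 in capillary-2, 259.6 in capillary-3, 148 in sinusoidal and 38.4 in arterial ECs (ratio 2.50, 1.98 to 3.19). The 2 lower ones, Igfbp3 and the netrin receptor Unc5b, were abundant in arterial ECs, at 4617 and 977 CPM, against 712 and 66.3 CPM in capillary-1. Apln, the apelin ligand, was at 598 CPM in capillary-1, 327 in capillary-2, 418 in capillary-3, 358 in sinusoidal and 285 in arterial ECs. It was highest in capillary-1 against each of the others, with a ratio of 1.71 (1.45 to 2.01). Fscn1, an actin-bundling protein of cell protrusions, was at 1358 CPM in capillary-1 and 1269 in capillary-3, between 511 and 1112 CPM in the others, and had a ratio of 1.56 (1.40 to 1.74). Robo1, a receptor for slit guidance proteins, had 47 UMIs in capillary-1 and a ratio of 1.99. Esm1, one of the best known tip cell genes, had 17 UMIs in capillary-1 and was below the minimum for comparison.

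Apelin and its receptor were found in the same cells. Of 232 capillary-1 ECs, 133 had a UMI of Apln, 186 one of Aplnr, 109 (47.0%) both and 22 neither. Apln was detected in 58.6% of the cells with Aplnr and in 52.2% of those without it. Thinned to 1000 UMIs per cell, which left out 5 shallower cells, the shares were 34.8% and 38.9%, so their order turned with depth and no relation between ligand and receptor is read from them. In arterial ECs, 32.1% of cells had a UMI of Apln and 5.36% one of Aplnr.

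Basement membrane genes went both ways in capillary-1. Of the 14 with at least 50 UMIs, 9 had a ratio over 1, 1 was 2-fold higher (background 0.814%) and 2, Fn1 and Lamb2, were 2-fold lower (background 2.77%), with a median log2 ratio of 0.27. Col15a1, a basement membrane collagen that is also a proteoglycan (chr4:47208161-47313167), was the higher one. It was at 2867 CPM in capillary-1, 1716 in capillary-2, 2086 in capillary-3, 350.0 in sinusoidal and 977 in arterial ECs, with a ratio of 2.11 (1.95 to 2.28). The order ran from the capillary subclusters through arterial to sinusoidal ECs, an 8.19-fold difference between its ends. Lamb1, a laminin chain, was at 478 CPM in capillary-1, 196 in capillary-2, 336 in capillary-3, 272 in sinusoidal and 187 in arterial ECs (ratio 1.89, 1.57 to 2.29). Col4a1, the main chain of collagen IV, was at 6719 CPM in capillary-1 and between 3727 and 5818 CPM in the others (ratio 1.36). Lama4, the endothelial laminin chain, had a ratio of 1.46. Col18a1, the source of endostatin, and Agrn, a heparan sulphate proteoglycan, were below 1, at 0.692 and 0.688, and Nid1, a linker protein, was at 0.960. Among matrix proteases, their inhibitors and collagen-modifying enzymes, 0 of 17 were past 2-fold in either direction and the median was -0.10. Of 8 integrins, 0 were higher and 1 was lower (0.814% and 2.77% of all genes).

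Of the caveolar, lipid uptake and fenestral genes, Gpihbp1, Cd36, Fabp4 and Plvap were lower in arterial than in capillary-1 ECs. The whole list did not separate arterial from non-arterial ECs. It summed to 19394 CPM in capillary-1, 22754 in capillary-2, 16714 in capillary-3, 11245 in sinusoidal and 12637 in arterial ECs. Gpihbp1, which anchors lipoprotein lipase on the capillary wall, was at 693 CPM in capillary-1, 240.0 in capillary-2, 499.9 in capillary-3, 583 in sinusoidal and 165 in arterial ECs (ratio 1.88, 1.61 to 2.20). Cd36, a fatty acid transporter, was at 2258 CPM in capillary-1, and at 2007, 1889, 1128 and 609 CPM in the others (95% interval of the ratio 1.48 to 1.74). Fabp4, a fatty acid chaperone, was at 4625 CPM in capillary-1 and between 4283 and 4821 in the other non-arterial subclusters, against 1131 in arterial ECs. Plvap, which forms the diaphragms of fenestrae, was at 1291 CPM in capillary-1 and 269 in arterial ECs, a ratio of 4.80. Aqp1 and Cav1 were lowest in sinusoidal ECs. The water channel Aqp1 was at 2681 CPM in capillary-1, 4887 in capillary-2, 2192 in capillary-3, 156 in sinusoidal and 615 in arterial ECs, and the caveolar coat gene Cav1 was at 3228, 3636, 2471, 467 and 4858 CPM. Of 13 genes of the list compared with all other ECs, 0 were 2-fold higher and 1 was lower (0.814% and 2.77% of all genes). Their median log2 ratio was 0.14. The lower one was Lpl, the gene of lipoprotein lipase, at a ratio of 0.331.

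**Figure D3:**
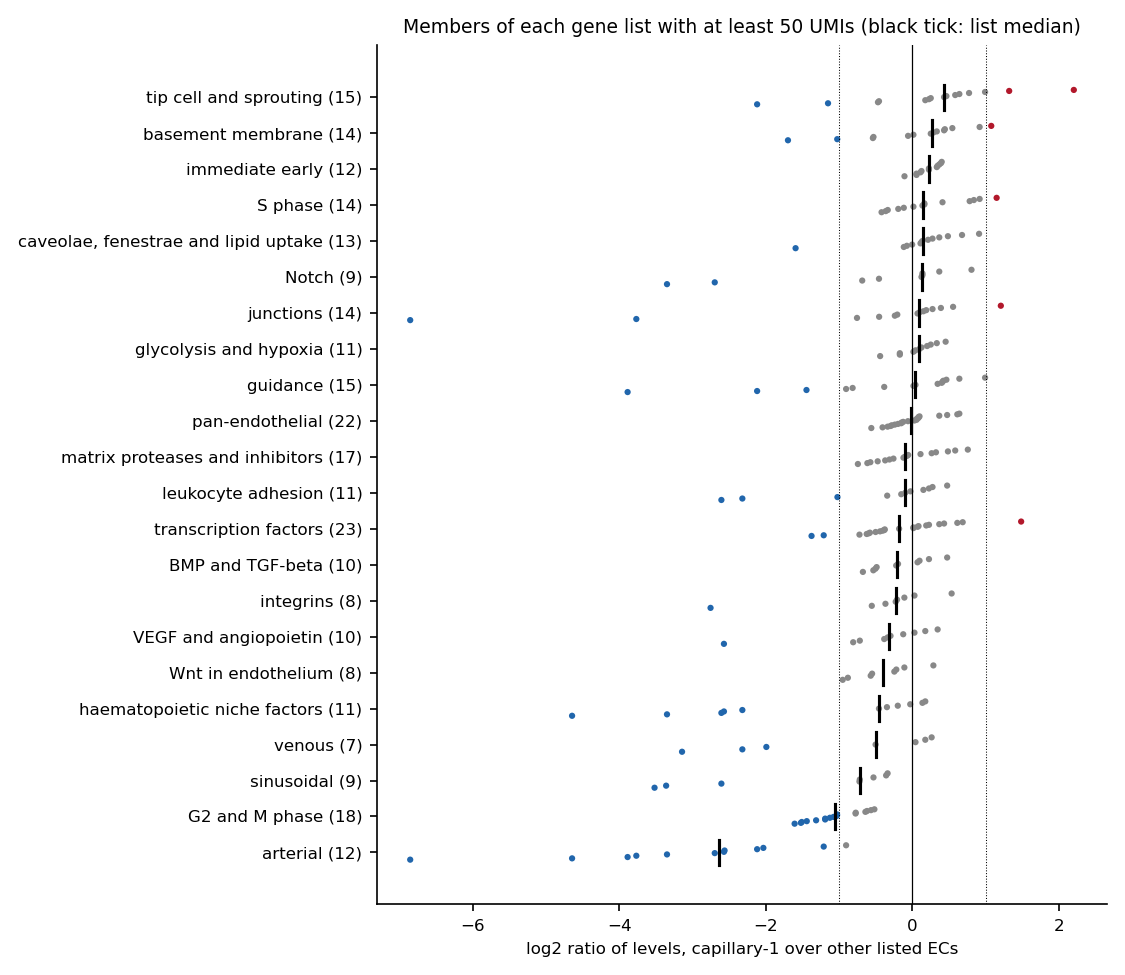
Log2 ratio of capillary-1 to the other listed ECs (horizontal) for the members with at least 50 UMIs of 22 gene lists (rows), 1 point per gene; the black tick is the median of the list and Lyve1, with 0 UMIs in capillary-1, is not drawn. Arterial genes lie furthest to the left with a median of -2.64, and the tip cell and sprouting list has a median of 0.43.

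The signalling, transcription factor and junction lists had at most 2 members past 2-fold in each direction. Of all genes compared, 0.814% were 2-fold higher and 2.77% 2-fold lower. With lists of 8 to 23 genes, no result is read from these counts. Of 10 VEGF and angiopoietin genes, 0 were higher and 1 was lower in capillary-1, with a median log2 ratio of -0.32. Of 9 Notch genes, 0 were higher and 2 were lower, with a median of 0.13. Within that list, Nrarp, a target and feedback inhibitor of Notch, was highest in capillary-1, at 387 CPM against 124, 255, 218 and 258 CPM (ratio 1.75), whereas the ligand Dll4 was at 142 CPM in capillary-1 and 538 in arterial ECs. Hes1, a transcriptional repressor downstream of Notch, was at 464 CPM in capillary-1, 371 in capillary-2, 567 in capillary-3, 272 in sinusoidal and 181 in arterial ECs. The Notch target Hey1 followed the ligands Jag1 and Dll4 instead, with a ratio of 0.154 and its highest level in arterial ECs, so the targets of the pathway did not share 1 order. Among 10 BMP and TGF-beta genes and 8 Wnt genes, 0 were past 2-fold in either direction, with medians of -0.21 and -0.40. Wnt target genes were near the floor in capillary-1, with 1 UMI of Axin2 and 2 of Lef1 in 232 cells. Of 23 transcription factors, 1 was higher (Meox1) and 2 were lower. Meox2, its relative, had its highest level in capillary-2 (545 CPM) and 254 CPM in capillary-1, while Klf2, a factor induced by blood flow, was at 286 CPM in capillary-1 and at 560.0, 437, 101 and 559.9 CPM in the others. Of 14 junction genes, 1 was higher (the protocadherin Pcdh17, ratio 2.31) and 2 were lower.

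Haematopoietic niche factors were not concentrated in capillary-1. Of the 26 listed, 11 had at least 50 UMIs, of which 0 were 2-fold higher and 5 were lower than in the other ECs, with a median log2 ratio of -0.46 (0.814% and 2.77% of all genes). Without arterial ECs, 1 of 9 was higher and 3 were lower. The shares of all genes in that comparison are not given, so nothing is read from these counts. Kitl, stem cell factor, was at 436 CPM in capillary-1, 349 in capillary-2, 418 in capillary-3, 62.2 in sinusoidal and 642 in arterial ECs. Against sinusoidal ECs capillary-1 was 7.01-fold higher (3.51 to 16.4), and against arterial ECs it was at 0.679 (0.548 to 0.846). A UMI of Kitl was seen in 60.8% of capillary-1 ECs, against 11.5% of the stromal subcluster eBMSC-1 and 1.26% of chondrocytes, and 35.7%, 4.62% and 0.536% with cells thinned to 1000 UMIs. Pdgfb, which recruits pericytes, was at 326 CPM in capillary-1 and 565 in arterial ECs. Cxcl12, the chemokine that retains blood stem cells, was at 16.2 CPM in capillary-1, with 12 UMIs, and at 1460.2 CPM in arterial ECs. Vcam1, an adhesion receptor for leukocytes, was at 25.7 CPM in capillary-1 and 723 in sinusoidal ECs, a ratio of 0.0356. Selp, another leukocyte adhesion receptor, was at 21.7 CPM in capillary-1 and at 241 in sinusoidal ECs.

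H19 and Igf2, neighbouring imprinted genes that are highly active in the fetus, lay between the sinusoidal and the arterial level in capillary-1. H19, a noncoding RNA, was at 9361 CPM in capillary-1, 6421 in capillary-2, 5989.6 in capillary-3, 218 in sinusoidal and 28984 in arterial ECs. Igf2, a growth factor, was at 6543, 5061, 4119.7, 311 and 15315 CPM. Capillary-1 was 43.0-fold above sinusoidal ECs for H19 (29.7 to 64.7) and 21.0-fold for Igf2, and below arterial ECs for both, at 0.323 and 0.427. The pooled ratios of 0.826 for H19 and 0.980 for Igf2 hide these opposite differences.

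Arterial genes were low in capillary-1 ECs, as they were in the capillary-3 and sinusoidal subclusters. The arterial list summed to 552 CPM in capillary-1, 1214 in capillary-2, 341 in capillary-3, 467 in sinusoidal and 10265 in arterial ECs. In the direct comparison with arterial ECs, 355 of 3540 genes were 2-fold higher in capillary-1 and 176 (4.97%) 2-fold lower. Against all other ECs, of 12 arterial genes with at least 50 UMIs, 11 were at 0.5 or below (2.77% of all genes) and the median log2 ratio was -2.64. Most UMIs of the list lay in arterial ECs, 1870 against 408 in capillary-1. The minimum thus favours genes low in capillary-1, and the count of 11 is not read as a result. Gja5, a connexin of arteries, had 2 UMIs in capillary-1, 0 in capillary-2, capillary-3 and sinusoidal ECs, and 206 in arterial ECs (ratio 0.00862, 0.00104 to 0.0316). Gja4, another arterial connexin, was at 23.0 CPM in capillary-1, 43.6 in capillary-2, 4.81 in capillary-3, 0 in sinusoidal and 1092 in arterial ECs. Sema3g, a secreted semaphorin, was at 16.2 CPM in capillary-1 and 856 in arterial ECs. Bmx, whose promoter drives the Cre of the mutant, had 0 UMIs in capillary-1 and 20 in arterial ECs, which were at least 27.0-fold higher. The low ratios of several genes came from the arterial ECs alone. Without them, Cxcl12 had 12 UMIs in capillary-1 and 1 in the 3 other subclusters together (ratio 7.70, 1.14 to 329). Sema3g had 12 against 2 UMIs (3.85, 0.857 to 35.4) and Gja4 had 17 against 7 (1.56, 0.614 to 4.45). These counts are under the minimum of 50, and the intervals of Sema3g and Gja4 include 1. Further genes among the lowest 15 were the transmembrane gene Tmem100 (0.0143), the microtubule regulator Stmn2 (0.0329), the matrix inhibitor of calcification Mgp (0.0423), the Wnt antagonist Dkk2 (0.0523), the Notch ligand Jag1 (0.0980) and the TGF-beta binding protein Ltbp4 (0.123).

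Against sinusoidal ECs, 282 of 3393 genes (8.31%) were 2-fold higher and 182 (5.36%) 2-fold lower in capillary-1. Among 9 sinusoidal genes compared with all other ECs, 4 were at 0.5 or below (2.77% of all genes) and 0 were 2-fold higher (0.814%). Their median log2 ratio was -0.72. Stab2, the scavenger receptor for hyaluronan that marks sinusoids, was at 9.47 CPM in capillary-1, 0 in capillary-2, 38.5 in capillary-3, 435 in sinusoidal and 0 in arterial ECs. Mrc1, the mannose receptor, was at 6.77 CPM in capillary-1 and 272 in sinusoidal ECs. Adamts5, a protease of proteoglycans, had 2 UMIs in capillary-1 and 43 in sinusoidal ECs, with at most 3 in each of the others. Related receptors were less uneven. Stab1 was at 267 CPM in capillary-1, between 98.8 and 269 in the capillary-2, capillary-3 and arterial subclusters, and at 1167 in sinusoidal ECs. Of 7 venous genes compared with all other ECs, 0 were 2-fold higher and 3 were lower (0.814% and 2.77% of all genes).

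Lymphatic transcripts were found in a few cells of capillary-2 and in 0 cells of capillary-1. Of 47 capillary-2 ECs, 7 had a UMI of the 5 lymphatic genes and 40 had 0. Lyve1, a hyaluronan receptor of lymphatic ECs, had 0 UMIs in capillary-1, 67 in capillary-2 and 20 in capillary-3, and capillary-2 was at least 120.0-fold higher. Its 67 UMIs lay in 5 cells, 1 of which held 27, and 30 UMIs in 3 cells remained once the top 5% of Scrublet scores had been removed. Lyve1 then had fewer than 50 UMIs over the ECs and was no longer compared. Ccl21a, a chemokine of lymphatic vessels, had 34 UMIs in 3 cells of capillary-2 and 0 in capillary-1, at least 60.9-fold higher. Prox1, the master transcription factor of the lymphatic lineage, had 11 UMIs in 4 cells of capillary-2 and 0 in capillary-1, and all 232 capillary-1 ECs were at 0 for the whole list of 5 lymphatic genes. Of 3372 genes with at least 50 UMIs in these 2 subclusters, 277 (8.21%) were 2-fold higher and 97 (2.88%) 2-fold lower in capillary-1. Vwf, the clotting factor of larger vessels, was at 16.2 CPM in capillary-1 and 473 in capillary-2 (ratio 0.0344). Edn1, a vasoconstrictor peptide, was at 24.4 against 393 CPM, and Nts, the peptide neurotensin, at 23.0 against 422 CPM. In the other direction, Kcne3, the butyrophilin-like Btnl9, the phosphatase Ptp4a3, the potassium channel regulator Abcc9 and the nuclear anchoring protein Akap8 had 55 to 109 UMIs in capillary-1 and 0 in capillary-2, which placed capillary-1 at least 3.41 to 6.76-fold higher.

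Capillary-3 held more transcripts of cell division than capillary-1. The G2 and M phase list summed to 10008 CPM in capillary-3 and 1896 in capillary-1. How many of the genes that differed belong to the cell cycle was not counted. Of 3651 genes compared, 96 (2.63%) were 2-fold higher and 125 (3.42%) 2-fold lower in capillary-1. The lowest ratios were those of genes of mitosis, among them Nusap1, which binds the spindle, at 55.5 CPM in capillary-1 and 486 in capillary-3 (0.114, 0.0775 to 0.166). Top2a, a topoisomerase of dividing cells, was at 246 CPM in capillary-1, 109 in capillary-2, 1365 in capillary-3, 163 in sinusoidal and 54.9 in arterial ECs. Trim59, Kif15, Aurkb and Ckap2l had ratios of 0.113 to 0.129 against capillary-3. The highest ratio against capillary-3 was that of Unc5b, at 49 UMIs against 1 (13.8, 2.36 to 556). Gm10051, Fam63b, Kdm5b and Med13, at 4.51 to 5.73-fold higher, had 3 UMIs each in capillary-3.

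Capillary-1 ECs were not free of dividing cells. Of 18 G2 and M phase genes, 12 were 2-fold lower in capillary-1 than in all other ECs and 0 higher (median log2 ratio -1.06). Of all genes compared, 2.77% were 2-fold lower and 0.814% higher. With capillary-3 left out of the comparison, 8 of 11 such genes were 2-fold higher in capillary-1 and 0 were lower. The count of all genes 2-fold higher also rose in that comparison, as given in the closing section, and its share of the genes compared is not given. That comparison was added after the data were seen. Most UMIs of the G2 and M list in it lay in capillary-1, 1401 against 134 in capillary-2, 122 in sinusoidal and 108 in arterial ECs. The minimum thus favours genes high in capillary-1, and the count of 8 is not read as a result. Summed with no minimum, the list was at 10008 CPM in capillary-3 and 1896 in capillary-1. It was at 974 CPM in capillary-2, 949 in sinusoidal and 593 in arterial ECs, so only capillary-3 lay above capillary-1. With each cell thinned to 1000 UMIs, 30.0% of capillary-1 ECs (68 of 227, 24.1 to 36.4%) had at least 2 UMIs of the G2 and M genes, against 17.8% of capillary-2 (upper bound 32.1%), 98.1% of capillary-3, 15.2% of sinusoidal and 11.5% of arterial ECs (4.35 to 23.4%). For S phase genes the shares were 27.8% (22.0 to 34.1%) in capillary-1, 11.1% in capillary-2, 61.5% in capillary-3, 15.2% in sinusoidal and 9.62% in arterial ECs. The unthinned shares in capillary-1 were 45.3% for G2 and M and 55.6% for S phase. Capillary-1 thus lay below capillary-3 for G2 and M genes beyond counting error at each depth. Its interval lay above that of arterial ECs at 2 UMIs per cell only by a narrow margin at 1000 UMIs, and the intervals overlapped at 2000 UMIs (35.5 to 51.0% against 10.6 to 37.6%) and unthinned (38.7 to 51.9% against 15.8 to 40.3%). The intervals of the capillary-2 and sinusoidal subclusters overlapped its own at 1000 UMIs. Free RNA between cells can contribute to such shares, and its part was not tested.

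Some genes varied among the capillary-1 ECs by more than counting. Of 1402 genes with at least 100 UMIs in these cells, 107 had a variance between cells at least 2-fold above that expected from counting at each cell's depth. The median ratio of variance to counting variance was 1.18. This ratio grows with abundance at the same relative spread, so the place of abundant genes at its top is not read as a result. H19 had the highest, at 34.9, followed by Igf2 (22.5), Fabp4 (17.3), the intermediate filament gene Vim (13.9) and Aqp1 (10.2). H19 had a median of 7067 CPM per cell with quartiles of 1361 and 14958, a highest value of 57283 and 23 cells at 0. Igf2 had a median of 5547 CPM (quartiles 1115 and 10393) and 29 cells at 0. Fabp4 had a median of 2905 CPM (quartiles 842 and 6565) and 37 cells at 0. These values ran in a broad spread within a single subcluster rather than around 1 level. Igfbp3 and the calcium-binding protein S100a6 were different in kind, since the 23 cells with the most UMIs held 55.5% of the UMIs of Igfbp3 and 67.4% of those of S100a6, and 101 and 155 cells were at 0. For H19 the top 23 cells held 35.2%. Tmsb4x, an actin-sequestering peptide (8.83), Cd36 (6.99) and the nuclear RNA Malat1 (5.60) completed the 10 genes.

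**Figure D4:**
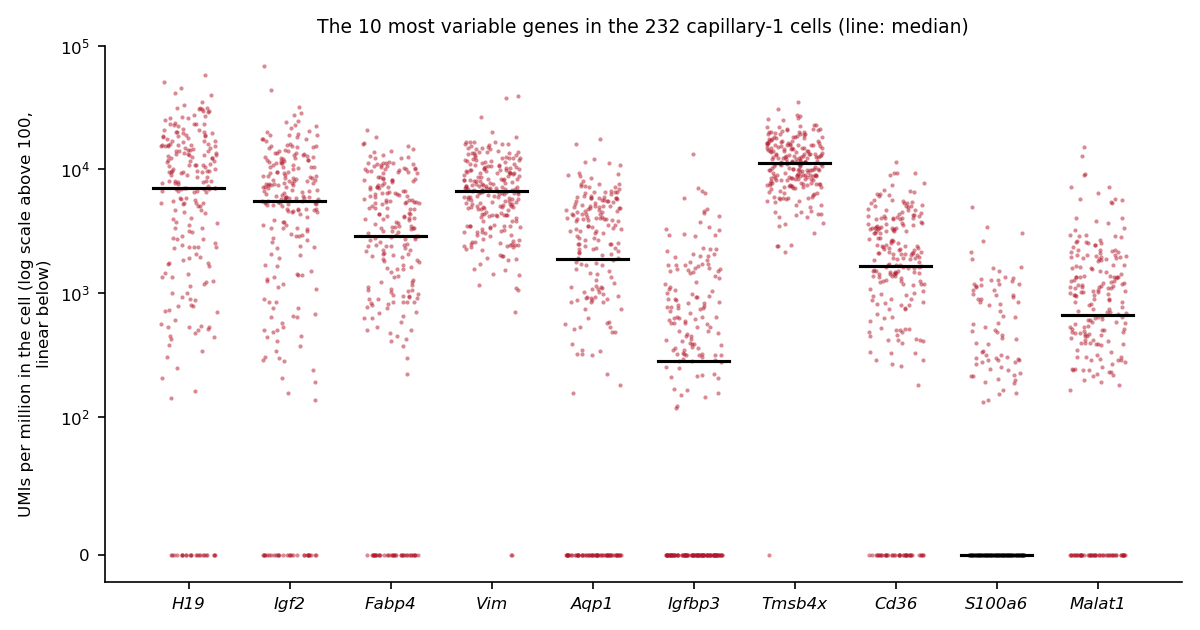
CPM in each of the 232 capillary-1 ECs (points) for the 10 genes with the highest variance over counting variance (horizontal), on a vertical axis that is linear near 0 and logarithmic above. H19, Igf2, Fabp4 and Aqp1 each spread from 0 to over 10000, while S100a6 is at 0 in 155 cells.

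Part of this variation was shared between genes. Across the 232 cells, which come from 1 library, Pearson's correlation of log levels was 0.73 between H19 and Igf2, 0.67 between Aqp1 and Cd36, 0.64 between Cd36 and Fabp4, 0.62 between Aqp1 and Igf2 and 0.58 between Aqp1 and H19. Igfbp3 and Fabp4 were at -0.21. The correlation with a cell's log depth was -0.03 for H19, -0.01 for Aqp1, 0.26 for Fabp4 and 0.34 for Tmsb4x. The cells rich in H19 and Igf2 thus tended to be those rich in Aqp1 and Cd36, in cells that share library and preparation.

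Markers of other cell types were at 0 in most but not all capillary-1 ECs. Of 232 cells, 142 had 0 UMIs of 8 stromal genes, 135 of 8 chondrocyte genes, 190 of 8 mural genes and 215 of 8 leukocyte genes, so that 38.8% had a stromal and 41.8% a chondrocyte UMI. The highest sum in 1 cell was 4930.2 CPM for the stromal list and 12382 CPM for the chondrocyte list, the latter in the 1 cell where it was over 1% of the UMIs. Ptprc, Pdgfrb and Myh11, which define leukocytes, pericytes and smooth muscle, had 0 UMIs. The collagen genes of bone and cartilage, Col1a1 and Col2a1, were at 103 and 161 CPM. Whether these came from free RNA was not tested.

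The Bmx-CreER Wls library, whose cells the list does not contain, held cells of the same profile. Cells of both libraries were assigned to the listed subcluster whose summed profile gave them the highest likelihood, and each gene's level was read in cells assigned without the part of the genes that includes it. By this rule 358 WT and 279 mutant cells had the capillary-1 profile, 61.9% (57.8 to 65.9%) of 578 and 61.7% (57.1 to 66.2%) of 452 ECs. The share of the profile among ECs was hence nearly equal in both libraries. Its share of all cells that passed the filter was not, at 6.24% of 5736 WT and 4.21% of 6620 mutant cells. The rule returned 220 of the 232 listed capillary-1 ECs to their subcluster, and also took up 20 of 47 capillary-2 and 20 of 53 capillary-3 ECs, so the profile is wider than the listed subcluster. Of 3252 listed cells that are not ECs, 2 were assigned to an EC profile.

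Genes higher in capillary-1 in the WT library were mostly higher in the same profile of the second library, which took no part in choosing the genes. Its cells, however, were chosen for their likeness to the WT profile. Genes that vary together can fall in both parts of the split, so some of this likeness is built in. The counts below are therefore not read as independent support. Of the 37 higher genes without haemoglobins, 35 had at least 50 UMIs there and 2 did not. All 35 had a ratio over 1 to the other EC profiles, against 52.2% of all genes. At least 2-fold higher were 19 (54.3%), against 1.48% of all the genes compared in both libraries and 1.56% of all genes with the minimum in the second. Of 131 lower genes, 125 had a ratio under 1 and 73 (55.7%) one of 0.5 or less, against 2.77% of the genes compared in both libraries and 3.60% of those with the minimum in the second. The ratio of Hspb1 lay between 1.69 and 4.48 there. That of Kcne3 was 3.14 (2.19 to 4.62), of Ablim3 4.25 (2.84 to 6.60), of Vwa1 4.82 (3.33 to 7.18), of Meox1 2.14, of Rgcc 3.20 and of Col15a1 2.43 (2.25 to 2.63). Spry1 reached 1.81 (1.18 to 2.87), Apln 1.85 and Gpihbp1 2.71. The estimate for Nfu1 shrank to 1.04 (0.641 to 1.70). Hspb1 and Spry1 were further from 1 in the listed WT cells than in the second library.

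**Figure D5:**
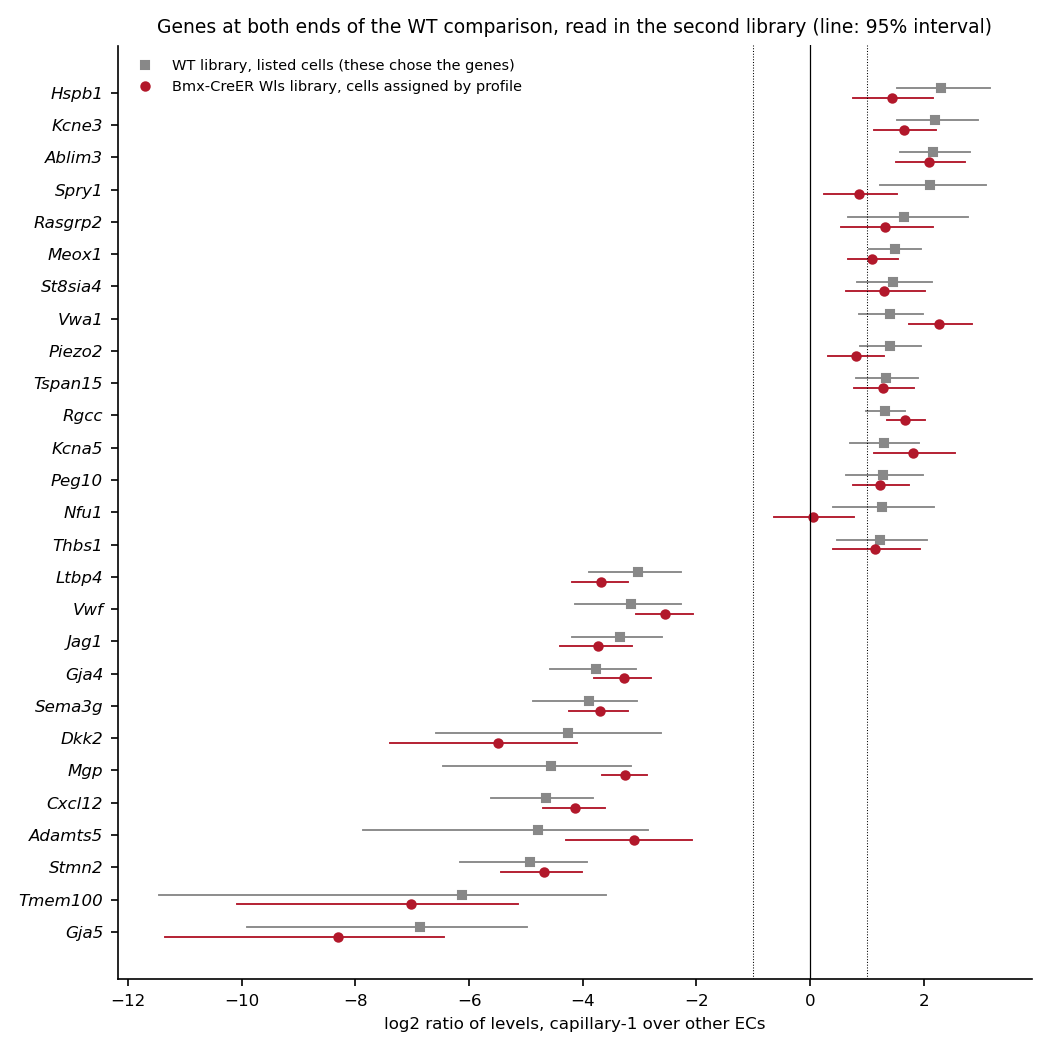
Ratio of the capillary-1 profile to the other EC profiles in the Bmx-CreER Wls library (horizontal, log axis) with 95% counting intervals, for 27 of the named genes that were highest (15) or lowest (12) in capillary-1 of the WT library. The intervals of 14 of the 15 higher genes lie above 1, that of Nfu1 includes 1, and those of all 12 lower genes lie below 1.

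Between the genotypes, the capillary-1 profile differed little. Since there is 1 library per genotype, the genotype cannot be told apart from the library. Of 6340 genes with at least 50 UMIs, 25 (0.394%) were 2-fold higher and 33 (0.521%) 2-fold lower in the mutant library, and the median log2 ratio was -0.01. Kcne3 was at 145 CPM in WT and 159.8 in mutant cells (1.11, 0.887 to 1.38), Ablim3 at 168 and 164 CPM, Col15a1 at 2638 and 2817 CPM (1.07, 1.02 to 1.12), Apln at 547 and 567 CPM and Aplnr at 898 and 832 CPM. Some named genes differed beyond counting error without reaching 2-fold. Vwa1 was at 145 and 219 CPM (1.51, 1.23 to 1.85), Gpihbp1 at 652 and 899 CPM (1.38, 1.25 to 1.52), Gm10051 at 75.2 and 145 CPM (1.93, 1.48 to 2.52), Edn1 at 37.2 and 67.9 CPM (1.82) and Peg10 at 91.4 and 151 CPM (1.66, 1.30 to 2.12). Lyve1, below the minimum, had 34 UMIs in WT and 1 in mutant cells of the profile, against 0 in the listed capillary-1 ECs. Kitl was at 457 and 398 CPM (0.871, 0.764 to 0.992). Other falls beyond counting error included Cgnl1 (0.521, 0.333 to 0.801), Maf (0.580, 0.396 to 0.840) and Tjp1 (0.647, 0.535 to 0.781). Of the tip cell, basement membrane, Notch and niche factor lists, 0 members with at least 50 UMIs differed 2-fold. In the glycolysis and hypoxia list, Pgk1 was 2-fold lower, at 43.7 CPM in WT and 19.3 in mutant cells (0.441, 0.253 to 0.742).

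Genes of red cells and of connective tissue were among those with the lowest ratios of mutant to WT. The haemoglobin gene Hba-a1 was at 82.7 and 9.80 CPM (0.118, 0.0551 to 0.227) and Hbb-bs at 51.0 and 8.82 CPM (0.173). Of the other genes, Prg4, the lubricant of joint surfaces, was at 35.9 and 7.84 CPM (0.218), and Col1a2, a collagen I chain, was at 300.0 and 93.1 CPM (0.310, 0.245 to 0.390). The summed stromal list was at 840.3 CPM in WT and 331 in mutant cells of the profile, and all 3 of its members with at least 50 UMIs were 2-fold lower. In the listed capillary-1 ECs that list summed to 215 CPM, so the assigned WT cells held more stromal transcripts than the listed ones. The erythroid list was at 226 and 42.5 CPM. The part of stromal and red cell RNA in these differences was not tested. The highest ratios were those of Erdr1 (3.80, 2.17 to 6.97), the interferon-induced Ifi44 (3.16), Gm12715 (2.81, 1.98 to 4.05), the protease inhibitor Timp4 (2.80) and the integrin Itgb4 (2.62). Gm12715 had 46 UMIs in the WT cells and the others at most 17.

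Wls itself was sparse in these cells. It had 38 UMIs, 30.7 CPM (21.7 to 42.2), in WT cells of the capillary-1 profile and 18 UMIs, 16.5 CPM (9.78 to 26.1), in mutant ones. In the arterial profile, where the Cre is active, it had 11 UMIs (48.4 CPM) in WT and 2 UMIs (7.19 CPM) in mutant cells. The libraries count tags near the 3′ end of transcripts, which may lie outside the deleted part, so these counts check the genotype labels only weakly.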

How the data were processed

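Lineage-depleted cells of fetal mouse bone marrow were profiled as 2 BD Rhapsody whole-transcriptome libraries, 1 per genotype. The authors deposited 1 table of UMI counts per library, genes by cell barcodes. The submitters' processing notes name bcl2fastq 2.19.1.403, UMI-tools 1.0.1, STAR 2.7.1a, Subread featureCounts 1.6.4 and mm10. Because 3′ tags are counted, levels were compared only within a gene. Cells were grouped by the subclusters of the study's cell list. All 435 listed ECs were found, with totals within 10 UMIs of those in the list. The members, gene lists and rules were chosen with earlier results of these data known.

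Counts were summed per subcluster and divided by the total (CPM). A gene was compared when it had at least 50 UMIs over the cells compared, and was counted at a ratio of 2 or more or of 0.5 or less. Counts of 0 were read against a floor of 3 counts. Named genes were the 4 markers, the 15 highest and 15 lowest ratios to the other ECs, the 5 highest and 5 lowest against capillary-2 and capillary-3, the 10 most variable genes, and list members, without mitochondrial, haemoglobin and ribosomal protein genes and some sex-linked genes. Prg4, Col1a2, Erdr1, Ifi44, Gm12715, Hba-a1, Hbb-bs, Timp4 and Itgb4 were named after their values were seen. For the second library, the 5736 WT and 6620 mutant cells that had over 200 but under 5000 genes and a mitochondrial share below 30% were assigned by multinomial likelihood, with genes split in 2 parts and a pseudocount of 0.1. Python 3.11.15, scipy 1.17.1, scanpy 1.11.5 (Scrublet) and, for TMM factors in 1 alternative, edgeR 4.0.16 were used. The scripts were tested on simulated data. Doublets were not removed, except in 1 alternative. Coordinates are those of GENCODE for GRCm38, the assembly of mm10. Cells of adult marrow were not analysed here. Some genes of the lists are in the count table under older symbols.

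The total of 738830 UMIs in capillary-1 ECs gives a floor of 4.06 CPM for a count of 0, against 14.4 to 23.3 CPM in the 4 smaller subclusters.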

Additional observations from a re-analysis of the deposited data

How the results depend on the processing

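No paired analysis was possible because each genotype has 1 library and no result comes from a test. Counts of genes past 2-fold depended on the minimum count and on the comparison group. Against 40 higher genes in the comparison with the other ECs, there were 81 by the mean over cells, 26 with cells thinned to 1000 UMIs, 82 with cells relabelled by likelihood, 117 without capillary-3 (added after the data were seen), 177 at a minimum of 20 UMIs, 10 at 200 and 1933 with none. Against 136 lower genes, there were 33 thinned, 376 at 20 UMIs, 26 at 200 and 2444 with none. With a minimum of 20, the higher and lower counts were 820 and 325 against capillary-2, 448 and 385 against capillary-3, 739 and 484 against sinusoidal and 941 and 425 against arterial ECs. List members numbered 6 higher, or 20 without capillary-3, and 38 lower, or 13 thinned. The share of capillary-1 was 53.3%, or 63.7% relabelled, when 366 of 435 cells kept their label. The cell cycle shares in capillary-1 were 55.6% (S) and 45.3% (G2 and M) unthinned, 49.7% and 43.1% at 2000 UMIs, and 51.5% and 47.6% at 1000 UMIs with a minimum of 1 in place of 2 UMIs of the list. Without arterial ECs, Cxcl12 (7.70), Gja4 (1.56) and Sema3g (3.85) turned above 1, on 1, 7 and 2 UMIs in the comparison group, and the intervals of Gja4 and Sema3g include 1. Of 378 values of single genes under the alternatives, 329 stayed within counting error, 46 moved and 3 reversed. The causes of these shifts were not tested beyond what each alternative leaves out. Depth limits the smaller subclusters, where 1 UMI is worth more CPM.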
